A study of Mus musculus with 3 samples.

Results

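Hox genes and 10 other families of developmental transcription factors were examined in JB6 P+ cells, a mouse line labelled as skin epithelial. The members were the genes of the count table whose symbols are a family stem followed by a number: Hoxa, Hoxb, Hoxc, Hoxd, Meis, Pbx, Irx, Dlx, Six4 and its relatives, Lhx, Msx, Pitx, Pax and Tbx. The rule found 100 of 24421 genes, of which 39 were Hox genes and 13 were Tbx genes. Tbx genes encode T-box rather than homeobox proteins, and some Pax proteins lack a complete homeodomain, so the members are homeobox and T-box genes together. The 3 libraries were from cells given 50 nM CDDO, a synthetic oleanane triterpenoid, together with 10 ng/mL of the phorbol ester TPA, from cells given 10 ng/mL TPA, and from a control. Treated cells were dosed every other day for 5 days with serum lowered to 1%, where routine growth used 10%. No source used here states the serum level, vehicle or duration of the control, so differences from control cannot be told apart from those of serum or time. Each group was 1 library, and no difference could be tested against variation among cultures.

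As background, Hox genes lie in 4 clusters and are expressed in an order that follows their place in the cluster, with low numbers toward the head of the embryo and high numbers toward the tail and the ends of the limbs. Fibroblasts and other mesenchymal cells of adult skin keep much of this pattern in culture, which is why the set of Hox genes a line expresses is read as a record of its body position. HOX proteins bind DNA together with PBX and MEIS proteins, which belong to the TALE class of homeodomain proteins. Six4 and its relatives work with EYA partners, LHX proteins with LDB1, and Polycomb and trithorax complexes keep these genes off or on.

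The CDDO+TPA, TPA and control libraries held 7872089, 7813035 and 8190078 reads in genes. Values below are CPM, the counts of a gene relative to the scaled size of its library, or RPKM, which is CPM per kilobase of exon and is the scale on which genes are compared with each other. A member was measured when it had at least 1 CPM in at least 1 library. Of the 16 keratinocyte markers listed, 7 were measured, with summed levels of 23.2 (CDDO+TPA), 38.5 (TPA) and 21.96 (control) CPM. No library had a read of Krt5 or Epcam, and Krt14 had 1 (CDDO+TPA), 0 (TPA) and 1 (control) reads. Of 16 mesenchymal markers 14 were measured, with summed levels of 3215 (CDDO+TPA), 2672 (TPA) and 3757 (control) CPM. Measured genes numbered 1 of 6 for leukocyte, 2 of 5 for endothelial and 2 of 6 for melanocyte markers, and the pan-leukocyte gene Ptprc had 0 reads in every library. The defining keratinocyte markers were thus absent or near 0 under a label of skin epithelial cells. The keratinocyte sum was highest in the TPA library, where Itgb4, an integrin gene, had 26 (CDDO+TPA), 185 (TPA) and 23 (control) reads, and the mesenchymal sum was lowest there. Of the 14 measured mesenchymal markers, 2 were higher, 3 lower and 9 not past the size rule given below in TPA against control. Their median log2 fold change was -0.09. The endothelial markers summed to 199 (CDDO+TPA), 292 (TPA) and 50.7 (control) CPM, nearly all from Vwf with 1561 (CDDO+TPA), 2307 (TPA) and 400 (control) reads, while Pecam1 had 5 (CDDO+TPA), 13 (TPA) and 2 (control) reads and Cdh5 had 0 (CDDO+TPA), 1 (TPA) and 3 (control) reads. Both measured endothelial markers, Vwf and Pecam1, were higher in TPA than in control by the same size rule. Pecam1 reached 1 CPM in the TPA library alone, so the filter favoured a higher value there. The leukocyte markers summed to 71.97 (CDDO+TPA), 53.1 (TPA) and 22.3 (control) CPM, nearly all from Cd68, and the melanocyte markers to 37.3 (CDDO+TPA), 17.3 (TPA) and 27.2 (control) CPM, with no read of Dct or Sox10 in any library. The part of these markers in the differences below was not tested. The counts taken as CDDO+TPA stand under a column named CDDO, matched because 1 sample's labels name CDDO.

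The line expressed a broad set of Hox genes, with limits inside 3 of the 4 clusters. Of the 39 Hox genes, 29 were measured and the other 10 had at most 1 read in any library. In the HoxA cluster on chromosome 6, Hoxa2 to Hoxa7 were measured, and Hoxa9, Hoxa10, Hoxa11 and Hoxa13 were not. The HoxB cluster on chromosome 11 (96194361 to 96368253) in mm10 had every gene from Hoxb2 to Hoxb9 measured, while Hoxb1 and Hoxb13 had at most 1 read. All 9 genes of the HoxC cluster on chromosome 15 (102921131 to 103036852), from Hoxc4 to Hoxc13, were measured. In the HoxD cluster on chromosome 2 (74668310 to 74765142), Hoxd3, Hoxd4, Hoxd8, Hoxd9 and Hoxd10 were measured, while Hoxd1, Hoxd11 and Hoxd12 had 0 reads in every library and Hoxd13 had 1 read in the CDDO+TPA library. A count of 0 allows up to 3 reads, which is 0.38 (CDDO+TPA), 0.377 (TPA) and 0.374 (control) CPM. Each of the 29 had at least 7 reads in every library, and Hoxc8 was the one that stood under 1 CPM in control.

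Levels differed widely along the clusters. Hoxc13, which regulates hair and nail keratin genes, had 41.8 (CDDO+TPA), 71.8 (TPA) and 65.2 (control) RPKM, the highest mean of the 39. Next came Hoxb9, a gene of the thoracic region, with 30.6 (CDDO+TPA), 43.5 (TPA) and 60.1 (control) RPKM. Hoxb9 was below Hoxc13 in all 3 libraries, and by the least in control. Hoxc6 had 22.8 (CDDO+TPA), 35.2 (TPA) and 41.4 (control) RPKM, and Hoxd8 had 22.6 (CDDO+TPA), 36.2 (TPA) and 29.9 (control) RPKM. Hoxc10 had 25.4 (CDDO+TPA), 29.7 (TPA) and 26.6 (control) RPKM, while Hoxc8, which lies between Hoxc6 and Hoxc9, had 0.428 (CDDO+TPA), 1.43 (TPA) and 0.369 (control) RPKM. In HoxA the highest was Hoxa7, the last measured gene of the cluster, with 14.7 (CDDO+TPA), 19.8 (TPA) and 18.2 (control) RPKM. In HoxD the level dropped from Hoxd9, with 16.9 (CDDO+TPA), 28.2 (TPA) and 19.7 (control) RPKM, through Hoxd10, with 0.753 (CDDO+TPA), 1.83 (TPA) and 1.42 (control) RPKM, to 0 reads at Hoxd11. The median of the 29 measured Hox genes was 5.33 (CDDO+TPA), 10.3 (TPA) and 7.91 (control) RPKM, against 17.1 (CDDO+TPA), 16.1 (TPA) and 16.9 (control) RPKM over the 13100 measured genes, so most Hox genes were below the typical expressed gene of this line.

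**Figure D1:**
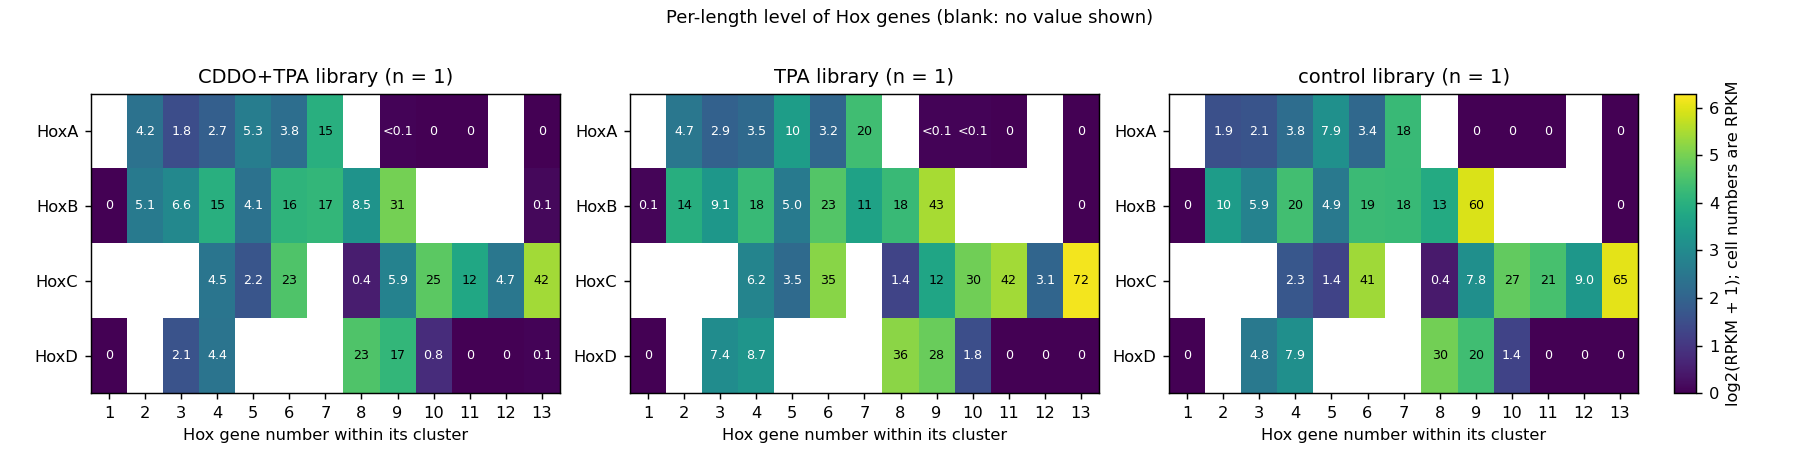
Each panel gives the per-length level of 38 Hox genes in 1 library, with clusters as rows, gene numbers as columns and colour as log2(RPKM + 1). HoxA stops after Hoxa7 and HoxD after Hoxd10, whereas HoxC is filled through Hoxc13, which had 41.8 (CDDO+TPA), 71.8 (TPA) and 65.2 (control) RPKM.

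The limits in HoxA and HoxD fall between neighbouring genes, and the stretches before the start of the last measured gene and of the first gene that was not measured are shown to compare them. They are the 250 bases upstream of a RefSeq start (GRCm38.p6), printed 5′ to 3′ on the strand of the gene. Each CpG, the dinucleotide that can be methylated, is in capitals.
Hoxa7, measured (chr6:52218574-52218823, minus strand): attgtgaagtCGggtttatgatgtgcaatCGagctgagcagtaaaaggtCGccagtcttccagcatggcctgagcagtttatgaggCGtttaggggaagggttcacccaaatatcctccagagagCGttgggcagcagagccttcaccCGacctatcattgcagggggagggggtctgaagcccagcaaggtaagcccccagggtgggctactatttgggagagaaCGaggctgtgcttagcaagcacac
Hoxa9, not measured (chr6:52227371-52227620, minus strand): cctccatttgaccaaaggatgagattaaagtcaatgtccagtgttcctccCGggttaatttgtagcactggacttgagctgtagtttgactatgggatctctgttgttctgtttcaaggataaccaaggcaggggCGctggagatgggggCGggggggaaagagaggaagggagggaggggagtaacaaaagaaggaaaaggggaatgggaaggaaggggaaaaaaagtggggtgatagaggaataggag
Hoxd10, measured (chr2:74691641-74691890, plus strand): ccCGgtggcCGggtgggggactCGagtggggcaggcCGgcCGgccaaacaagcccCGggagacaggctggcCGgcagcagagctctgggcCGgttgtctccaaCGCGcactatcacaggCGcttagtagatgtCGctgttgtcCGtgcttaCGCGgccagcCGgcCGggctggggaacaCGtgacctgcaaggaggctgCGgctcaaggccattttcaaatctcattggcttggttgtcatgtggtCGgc
Hoxd11, not measured (chr2:74679308-74679557, plus strand): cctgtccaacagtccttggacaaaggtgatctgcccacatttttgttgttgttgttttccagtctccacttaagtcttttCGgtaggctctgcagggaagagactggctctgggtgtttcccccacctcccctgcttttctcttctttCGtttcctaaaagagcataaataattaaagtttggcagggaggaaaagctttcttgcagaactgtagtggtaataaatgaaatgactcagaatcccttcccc
These windows held 7 CpG for Hoxa7 and 3 for Hoxa9, and 20 for Hoxd10 and 2 for Hoxd11. Hoxd11 has 2 listed promoters, of which 1 is shown, so its count holds for that window only. A window was matched for 64 of the 100 members, 32 of them measured. The median was 13 CpG in the 32 measured members, 13 in the 32 that were not measured and 6 over all 32851 windows, so CpG number did not separate measured from unmeasured members. The unmeasured Hoxa13 had 35, the measured Hoxd4 had 3, and methylation itself was not analysed here.

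Among the HOX partners, all 3 Meis and all 4 Pbx genes were measured. Pbx2 had 27.2 (CDDO+TPA), 29.2 (TPA) and 23.3 (control) RPKM and Pbx3 had 24.6 (CDDO+TPA), 26.7 (TPA) and 20.99 (control) RPKM, and Meis3 with 22.4 (CDDO+TPA), 22.9 (TPA) and 21.2 (control) RPKM was above Meis2 with 11.2 (CDDO+TPA), 13.4 (TPA) and 11.7 (control) RPKM. All 6 Iroquois genes, TALE factors that lie in clusters on chromosomes 13 and 8, were measured. Irx2 had 43.1 (CDDO+TPA), 83.4 (TPA) and 53.7 (control) RPKM and was the highest member in the CDDO+TPA and TPA libraries, and Irx5 had 10.02 (CDDO+TPA), 23.5 (TPA) and 14.8 (control) RPKM. Irx4 and Irx6 stayed at or below 10 reads in every library.

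Of the remaining homeobox families, Pax3, a gene of neural crest and muscle precursors, had 16.3 (CDDO+TPA), 24.1 (TPA) and 20.5 (control) RPKM, and Six4, a gene of muscle precursors, had 7.48 (CDDO+TPA), 8.56 (TPA) and 4.502 (control) RPKM. Pax9, a gene of tooth and pharyngeal pouch development, had 3.003 (CDDO+TPA), 3.804 (TPA) and 3.39 (control) RPKM, and Pax8 reached at most 21 reads. Msx1, a craniofacial gene, had 3.74 (CDDO+TPA), 4.49 (TPA) and 4.91 (control) RPKM, a value that is uncertain because its exons share 1137 bases with the antisense gene Msx1os and counting was not stranded. Lhx6 was the measured gene of 8 in its family, and Msx1 of 3. The T-box genes Tbx15 and Tbx18, both known in skin mesenchyme, had 29.4 (CDDO+TPA), 41.1 (TPA) and 35.8 (control) RPKM and 12.1 (CDDO+TPA), 11.1 (TPA) and 14.8 (control) RPKM, and Tbx3 had 6.104 (CDDO+TPA), 10.4 (TPA) and 3.84 (control) RPKM. Tbx5, the forelimb gene, and Tbx1, Tbx19, Tbx20 and Tbx22 had 0 reads in every library, and Tbx4, the hindlimb gene, had 1 (CDDO+TPA), 6 (TPA) and 0 (control) reads. In all, 60 of the 100 members were measured, 40 were not, and 20 of those 40 had 0 reads in all 3 libraries. The other 20 had at most 6 reads in any library.

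The comparison of TPA with control shows how these genes stood in cells given the tumour promoter alone. In TPA-treated cells 10 of the 60 measured members were higher and 3 lower by a size rule, and 47 did not pass it. To pass, the log2 fold change had to reach 1 or -1 and the 95% counting interval of the fold had to exclude 1. The rule took 9.57 percent of the 13100 measured genes upward and 5.91 percent downward (15.5 percent in either direction), against 16.7% and 5% of the members. The share of members lower was thus close to that of all genes. Hoxc8, Pbx4 and Tbx21 had under 1 CPM in control, and Pbx4 and Tbx21 passed the filter through the TPA library alone. With a filter on the mean of the 3 libraries, at least 10 CPM, 3 of 37 members were higher and 2 lower, and over all 9890 genes left 381 were higher and 476 lower, or 3.85% and 4.81%. The median log2 fold change was 0.33 over the members and 0.00 over all measured genes. Fold changes below are followed by their 95% counting interval, which leaves out the spread between cultures.

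The member with the most reads behind a rise past the rule was Dlx2, a distal-less gene of forebrain and branchial arch development (chromosome 2, 71543408 to 71546754, minus strand). Dlx2 had 18.2 (CDDO+TPA), 74.9 (TPA) and 15.8 (control) CPM, and the TPA library was 4.73-fold higher (3.898 to 5.77). Only the TPA library was high, and the CDDO+TPA and control values had overlapping counting intervals. Dlx1, which lies beside it on chromosome 2, had 6.21 (CDDO+TPA), 5.77 (TPA) and 4.99 (control) CPM and was not past the rule, and 37.96% of its exonic bases overlap the antisense gene Dlx1as. Pbx4, a PBX gene known from the testis (chromosome 8, 69832704 to 69872292, plus strand), had 5 (CDDO+TPA), 33 (TPA) and 1 (control) reads, which made it 33.2-fold higher (5.56 to 1350.5) with TPA. Tbx21, the T-box factor of type 1 helper T cells, had 1 (CDDO+TPA), 17 (TPA) and 0 (control) reads and was at least 5.701-fold higher with TPA when control is set to its floor of 3 reads. Lhx6, a LIM homeobox gene of interneurons and jaw mesenchyme, had 28.3 (CDDO+TPA), 41.9 (TPA) and 17.8 (control) CPM and was 2.35-fold higher (1.93 to 2.88). For Tbx3, a repressor active in limb and mammary development, the values were 29.5 (CDDO+TPA), 50.1 (TPA) and 18.6 (control) CPM, which made it 2.69-fold higher (2.23 to 3.27) in the TPA library.

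With TPA, 4 Hox genes passed the rule upward and 1 downward. They were 13.8% and 3.45% of the 29 measured Hox genes, against 9.57% and 5.91% of all measured genes. Hoxc4 had 8.87 (CDDO+TPA), 12.3 (TPA) and 4.49 (control) CPM and its neighbour Hoxc5 had 5.96 (CDDO+TPA), 9.54 (TPA) and 3.87 (control) CPM, and they were 2.74-fold higher (1.85 to 4.13) and 2.47-fold higher (1.604 to 3.88). Hoxc8 had 8 (CDDO+TPA), 27 (TPA) and 7 (control) reads and was 3.88-fold higher (1.65 to 10.6), and Hoxa2, a hindbrain and branchial arch gene, had 7.48 (CDDO+TPA), 8.29 (TPA) and 3.37 (control) CPM and was 2.46-fold higher (1.55 to 4.003). In the same HoxC cluster Hoxc12, with 3.93 (CDDO+TPA), 2.64 (TPA) and 7.61 (control) CPM, was 2.89-fold lower (1.73 to 4.99), while the abundant Hoxc13 had 102 (CDDO+TPA), 175 (TPA) and 159 (control) CPM and a log2 fold change of 0.14. Hoxc11 had 11.4 (CDDO+TPA), 38.4 (TPA) and 19.5 (control) CPM and a log2 fold change of 0.97, just short of the rule. Hoxb9 had 82.6 (CDDO+TPA), 117 (TPA) and 162 (control) CPM with a log2 fold change of -0.47. Hoxb3, Hoxb4, Hoxb5 and Hoxb6 had log2 fold changes of 0.61, -0.15, 0.05 and 0.33, and Hoxa4 had -0.12. The rest of the 24 Hox genes not past the rule had log2 fold changes between -0.66 (Hoxb7) and 0.63 (Hoxc9). Outside the Hox clusters 2 members were lower. Meis1, the MEIS gene most studied in blood stem cells and leukaemia, had 8.49 (CDDO+TPA), 7.41 (TPA) and 18.6 (control) CPM and was 2.51-fold lower (1.85 to 3.45) with TPA (chromosome 11, 18880428 to 19018969, minus strand). Irx1 had 38.3 (CDDO+TPA), 53.9 (TPA) and 123 (control) CPM and was 2.28-fold lower (2.04 to 2.56), while Irx2 in the same chromosome 13 cluster had 106 (CDDO+TPA), 206 (TPA) and 132 (control) CPM and a log2 fold change of 0.63.

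**Figure D2:**
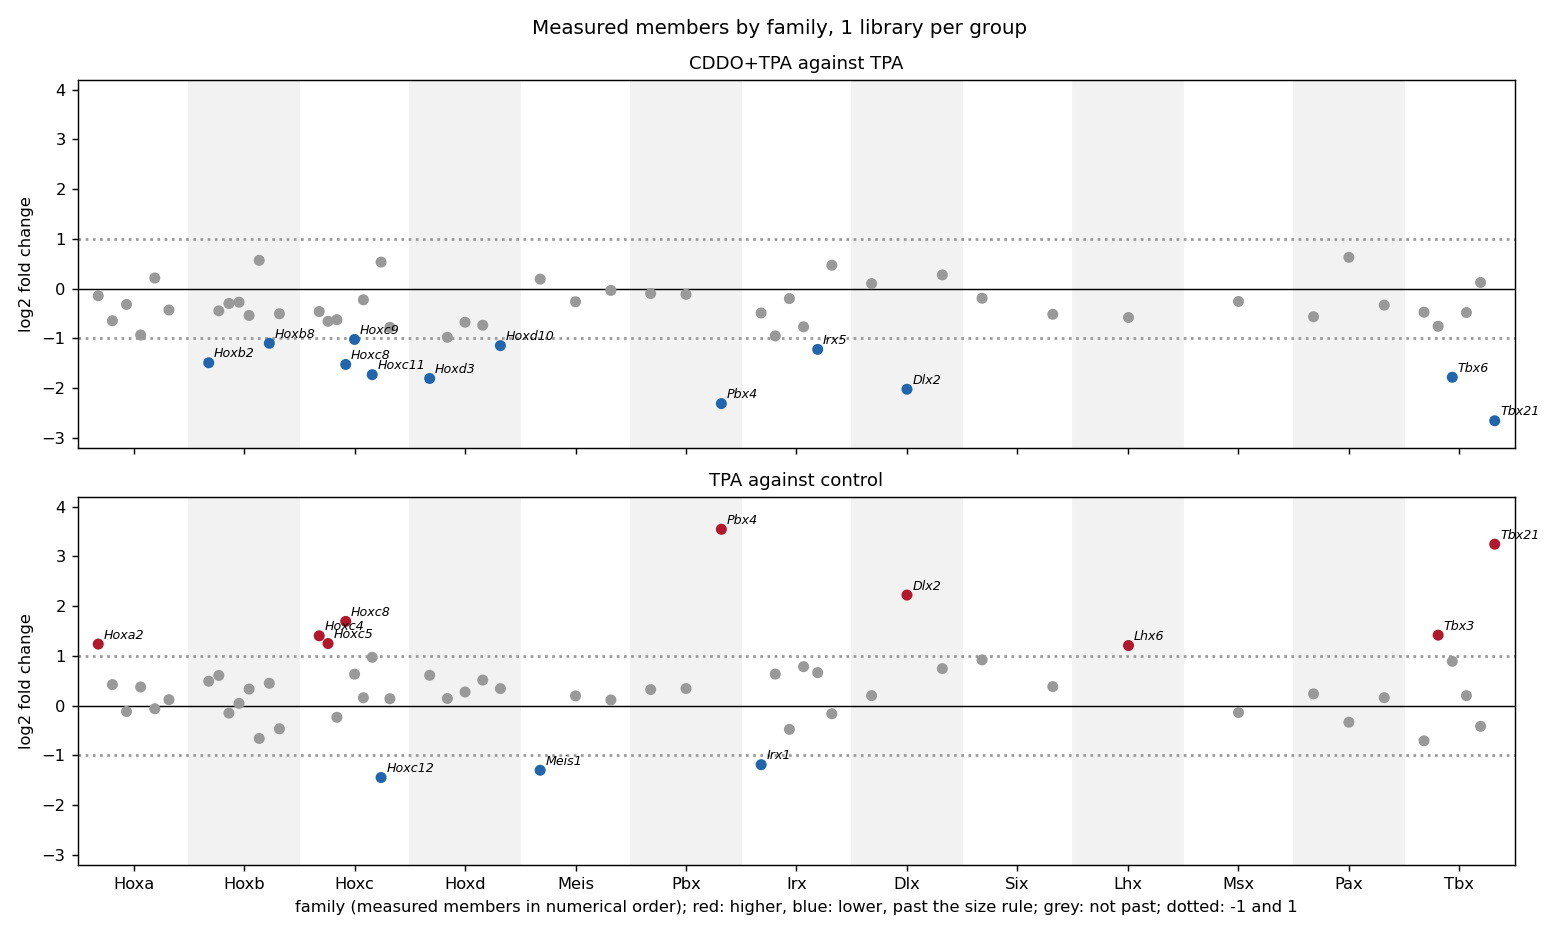
Log2 fold change of 56 measured members by family, for CDDO+TPA against TPA (upper panel) and TPA against control (lower panel), with 1 library per group. In the upper panel 12 plotted members lie at or under -1 past the size rule and 0 are higher, while in the lower panel 9 are higher and 3 lower.

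CDDO+TPA and TPA cells differ, by their labels, in CDDO. This comparison shares the TPA library with the comparison above, so an unusual value in that library enters both with opposite signs. None of the 60 measured members (0) was higher, 13 were lower and 47 did not pass the rule, which took 7.87 percent of all measured genes upward and 7.78 percent downward (15.6 percent in either direction). The 13 were 21.7% of the measured members, but Pbx4 and Tbx21 among them reached 1 CPM in the TPA library alone, so the filter favoured a lower value. With a filter on the mean of the 3 libraries, at least 10 CPM, 7 of 37 members were lower and 0 higher, against 2.295% and 5.28% of 9890 genes. The median log2 fold change was -0.49 over the members, -0.62 over the 29 Hox genes and 0.01 over all measured genes, and 48 of the 60 values were below 0, as were 49.2% of all. In a bulk sample fewer cells expressing a gene and less RNA per cell cannot be told apart.

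Dlx2 was 4.11-fold lower (3.42 to 4.96) in the CDDO+TPA library and Pbx4 was 6.54-fold lower (2.54 to 21.5). Tbx21 was 16.8-fold lower (2.64 to 704) with 1 read in the CDDO+TPA library. Tbx6, a T-box gene of the presomitic mesoderm, had 4.05 (CDDO+TPA), 14.6 (TPA) and 7.74 (control) CPM and was 3.59-fold lower (2.41 to 5.49). Its CDDO+TPA value was the lowest of the 3 and the interval did not reach that of control. Irx5 had 24.1 (CDDO+TPA), 56.5 (TPA) and 35.6 (control) CPM and was 2.35-fold lower (1.98 to 2.795), with the other abundant Iroquois genes Irx2 and Irx1 at log2 fold changes of -0.95 and -0.49.

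Among the 13 were 7 Hox genes from 3 clusters, or 24.1% of the 29 measured Hox genes, against 7.78% of all measured genes. Hoxd3, a HoxD gene of the cervical region (chromosome 2, 74711993 to 74748271, plus strand), had 5.96 (CDDO+TPA), 21.5 (TPA) and 13.98 (control) CPM and was 3.605-fold lower (2.597 to 5.09). Hoxc11, a posterior gene of the hindlimb (chromosome 15, 102954526 to 102956701, plus strand), had 11.4 (CDDO+TPA), 38.4 (TPA) and 19.5 (control) CPM and was 3.37-fold lower (2.65 to 4.31). Hoxb2, a hindbrain gene, had 8.24 (CDDO+TPA), 23.6 (TPA) and 16.7 (control) CPM and was 2.87-fold lower (2.15 to 3.86). For these 3 genes, and for Hoxb8, Hoxc9 and Hoxd10 below, the CDDO+TPA library was the lowest and the TPA library the highest. Hoxc8 was lowest in control. Hoxb8 had 22.4 (CDDO+TPA), 48.3 (TPA) and 35.3 (control) CPM and was 2.16-fold lower (1.799 to 2.59), and Hoxc9 had 10.1 (CDDO+TPA), 20.8 (TPA) and 13.4 (control) CPM and was 2.06-fold lower (1.57 to 2.72). The low-count genes Hoxc8, 3.34-fold lower (1.48 to 8.52), and Hoxd10, 2.43-fold lower (1.17 to 5.43) with 11 (CDDO+TPA), 27 (TPA) and 21 (control) reads, completed the group. In HoxB the log2 fold changes were -0.45 for Hoxb3, -0.30 for Hoxb4, -0.27 for Hoxb5 and -0.54 for Hoxb6, and Hoxa4 had -0.32. Lower values were spread over most Hox genes: 25 of 29 had a log2 fold change below 0, with -0.78 for Hoxc13, -0.98 for Hoxd4 and -0.93 for Hoxa5. Values above 0 included Hoxb7 with 0.57, Hoxc12 with 0.53 and Hoxa6 with 0.21. Apart from Pbx4, no Meis or Pbx gene passed the rule, with log2 fold changes of -0.10 for Pbx2, -0.12 for Pbx3, 0.19 for Meis1, -0.26 for Meis2 and -0.04 for Meis3.

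GC content moved with this comparison. Members had a median transcript GC content of 54.4%, against 49.8% over all measured genes, and the median log2 fold change of all genes was -0.27 in the most GC-rich and 0.08 in the least GC-rich of 20 bins. With the median of each bin subtracted, an alternative chosen after seeing the data, the member median was -0.45 and 11 members were lower and 0 higher, against 7.66% and 7.57% of all genes. Hoxc9 and Irx5 were the members no longer past the rule. In TPA against control the bin medians were 0.31 in the most and -0.21 in the least GC-rich bin. Their subtraction gave a member median of 0.25 with 11 of the 60 members higher and 4 lower, adding Six4 and Tbx2. Over all genes the shares were then 9.07% higher and 5.59% lower. The part of GC content in the remaining differences was not tested.

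**Figure D3:**
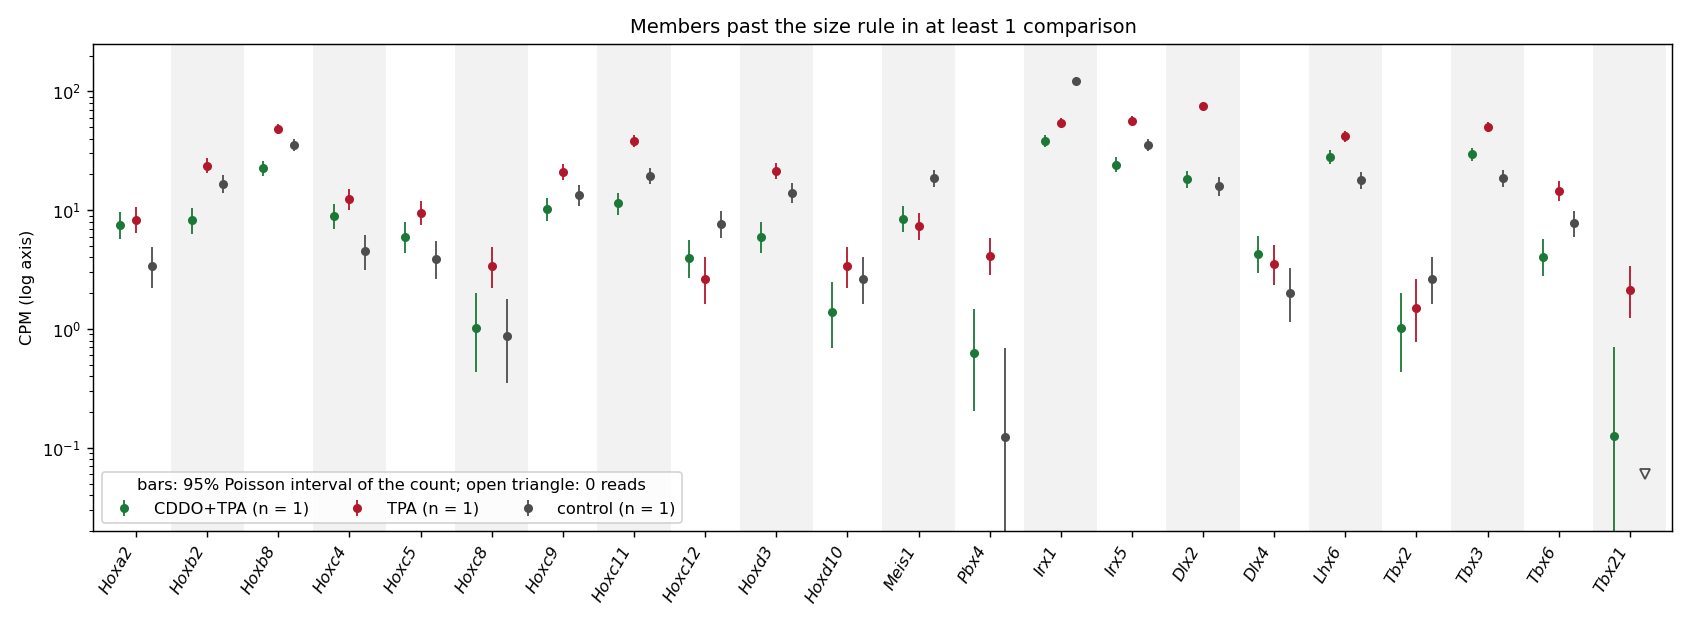
CPM on a log axis, by library, of 22 members past the size rule in at least 1 comparison, with 95% Poisson intervals of the counts. Dlx2 stands out in the TPA library with 74.9 CPM. For Hoxb2, Hoxb8, Hoxc9, Hoxc11, Hoxd3, Hoxd10, Irx1, Irx5, Tbx2 and Tbx6 the CDDO+TPA value is the lowest of the 3.

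The comparison of CDDO+TPA with control shares a library with each of the others. Here 2 of the 60 measured members were higher, 4 were lower and 54 did not pass the rule, which took 8.02 percent of all genes upward and 3.37 percent downward (11.4 percent in either direction). With a mean of at least 10 CPM 0 of 37 members were higher and 3 lower, against 5.13% and 1.67% of 9890 genes. Irx1 was 3.21-fold lower (2.82 to 3.67) in the CDDO+TPA library, Hoxd3 was 2.35-fold lower (1.66 to 3.37), Meis1 was 2.19-fold lower (1.63 to 2.97) and Tbx2, with 8 (CDDO+TPA), 12 (TPA) and 21 (control) reads, was 2.59-fold lower (1.100 to 6.75). Hoxa2 was 2.22-fold higher (1.38 to 3.64), and Dlx4, a distal-less gene of the placenta with 34 (CDDO+TPA), 28 (TPA) and 16 (control) reads, was 2.16-fold higher (1.16 to 4.19). Hoxb9 and Hoxb2 lay just short of the rule with log2 fold changes of -0.97 and -0.9999. Of the 29 Hox genes 22 were below 0, with a median of -0.39, against -0.02 over all genes.

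Family sums rest on more reads than single members do. The HoxC genes summed to 228 (CDDO+TPA), 375 (TPA) and 325 (control) CPM, which was 1.64-fold lower (1.55 to 1.74) in CDDO+TPA against TPA and 1.15-fold higher (1.09 to 1.22) in TPA against control. The HoxD sum was 103 (CDDO+TPA), 184 (TPA) and 143 (control) CPM and was 1.79-fold lower (1.64 to 1.96) in CDDO+TPA against TPA. HoxB summed to 226 (CDDO+TPA), 324 (TPA) and 344 (control) CPM and HoxA to 66.5 (CDDO+TPA), 86.5 (TPA) and 75.003 (control) CPM. All 39 Hox genes together had 623 (CDDO+TPA), 969.8 (TPA) and 887 (control) CPM, so the sum was 1.56-fold lower (1.501 to 1.61) in CDDO+TPA against TPA, 1.09-fold higher (1.06 to 1.13) in TPA against control and 1.42-fold lower (1.37 to 1.48) in CDDO+TPA against control. The PBX sum, 182 (CDDO+TPA), 192 (TPA) and 146 (control) CPM, was 1.05-fold lower (0.98 to 1.13) in CDDO+TPA against TPA, an interval that included 1. The Iroquois sum of 179 (CDDO+TPA), 328 (TPA) and 306 (control) CPM was 1.83-fold lower (1.72 to 1.96) and the Dlx sum of 29.4 (CDDO+TPA), 84.99 (TPA) and 23.1 (control) CPM was 2.89-fold lower (2.49 to 3.37) in the same comparison. Dlx2 gave 597 of the 677 Dlx reads in the TPA library, and the other measured Dlx genes had log2 fold changes of 0.10 (Dlx1) and 0.28 (Dlx4). In the same library Irx2 gave 1637 of 2610 Iroquois reads, Hoxc13 1392 of 2984 HoxC reads and Hoxb9 935 of 2583 HoxB reads. Abundant members thus weigh most in the sums. The Meis, Pax, Tbx and Msx sums were also lowest in the CDDO+TPA library. Against TPA the Meis sum was 1.11-fold lower (1.01 to 1.22) and the Pax sum 1.43-fold lower (1.29 to 1.596). The Tbx sum was 1.36-fold lower (1.28 to 1.46). The Msx sum was 1.199-fold lower (0.83 to 1.73), an interval that included 1.

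**Figure D4:**
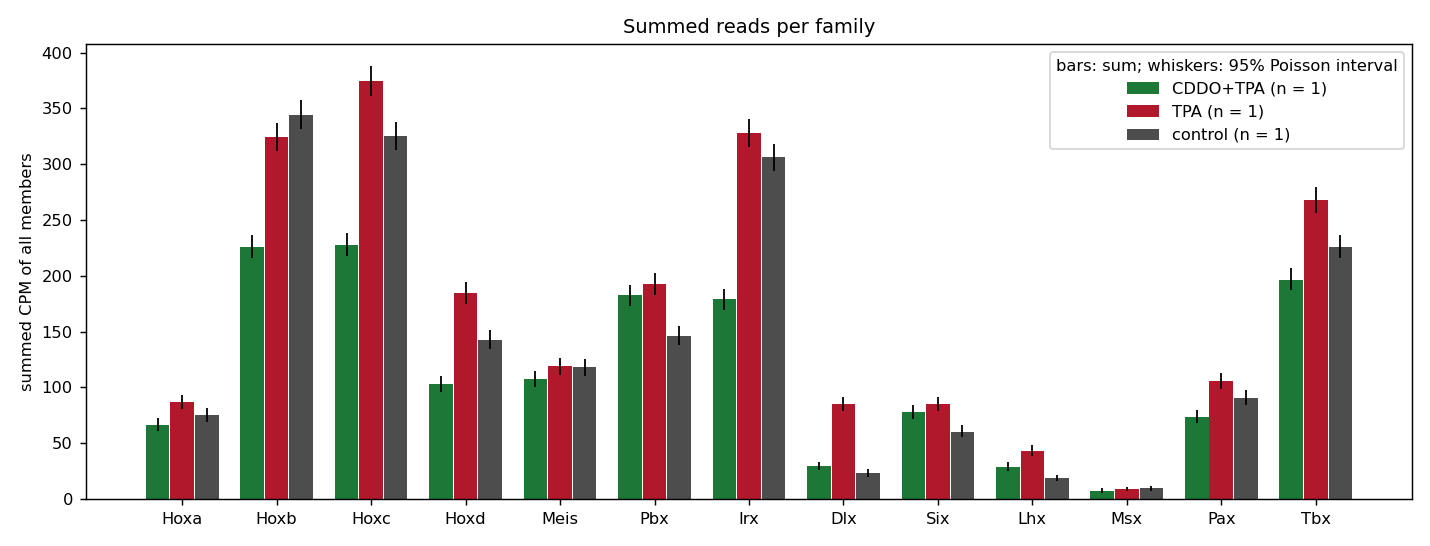
Summed CPM of 13 families in the 3 libraries, to be read within a family because the sums are not per length. The 4 Hox clusters and the Irx, Meis, Msx, Pax and Tbx families have their lowest sum in the CDDO+TPA library. Families lowest in control include Pbx, with 182 (CDDO+TPA), 192 (TPA) and 146 (control) CPM.

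The stretches before the starts of Dlx2 and Lhx6 are shown as examples, chosen after the search because both genes were higher in the TPA library and each window holds a motif for factors that phorbol esters or electrophiles act on. Searched on both strands were TGANTCA, the AP-1 core of the TPA response element, and TGACNNNGC, the core of the antioxidant response element bound by NRF2, which are in capitals. The windows are the 250 bases before a RefSeq start in GRCm38.p6, 5′ to 3′.
Dlx2 (chr2:71546755-71547004, minus strand): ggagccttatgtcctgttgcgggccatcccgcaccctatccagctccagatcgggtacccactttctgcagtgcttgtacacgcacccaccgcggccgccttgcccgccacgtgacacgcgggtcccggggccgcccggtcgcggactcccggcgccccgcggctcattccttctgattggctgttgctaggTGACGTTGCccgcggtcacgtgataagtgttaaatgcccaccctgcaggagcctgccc
Lhx6 (chr2:36105409-36105658, minus strand): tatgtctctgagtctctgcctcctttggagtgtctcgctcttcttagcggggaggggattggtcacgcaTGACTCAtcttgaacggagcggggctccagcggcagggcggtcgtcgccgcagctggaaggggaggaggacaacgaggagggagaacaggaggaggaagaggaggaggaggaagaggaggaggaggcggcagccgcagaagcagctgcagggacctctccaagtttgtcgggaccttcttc
Dlx2 held TGACNNNGC starting 58 bases before its start, and Lhx6 held TGANTCA starting 181 bases before the start used. Lhx6 has 3 listed promoters, of which 1 is shown, so the match holds for that window only. Of the 10 members higher in TPA than in control, 6 had a window, of which 1 held TGANTCA (Lhx6), 2 held TGACNNNGC (Dlx2 and Pbx4) and 3 held neither (Hoxa2, Hoxc4 and Tbx21). TGANTCA was in 5 of 64 member windows (7.81%) and in 6.75% of all 32851, and TGACNNNGC was in 8 of 64 (12.5%) and 10.2%. TGACAG, the MEIS motif, was in 9 of 64 and 15.9% of all, and TGATTNAT, the HOX-PBX motif, in 3 of 64 and 2.82%. TAATTA, the homeodomain core, was in 4 of 64 and 4.84%, and TATAAA in 8 of 64 and 12.4%. The motifs can overlap each other, and a match is a description of the letters only.

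Genes that act with the members were counted from lists under the same rule and read against the same background shares. For this list and those below, the shares of all measured genes were 9.57% higher and 5.91% lower in TPA against control. In CDDO+TPA against TPA they were 7.87% higher and 7.78% lower. Of 12 measured cofactors, the rule called 0 higher and 3 lower in TPA against control and 3 higher and 0 lower in CDDO+TPA against TPA, with medians of -0.17 and 0.36. Eya4, a coactivator of Six4 and its relatives, had 51.3 (CDDO+TPA), 20.2 (TPA) and 61.4 (control) CPM and Dach2, a corepressor of the same network, had 7.48 (CDDO+TPA), 1.88 (TPA) and 7.99 (control) CPM, so both were lowest in the TPA library. Gmnn, the replication inhibitor geminin that also binds HOX proteins, had 27.6 (CDDO+TPA), 9.16 (TPA) and 9.86 (control) CPM and was 3.01-fold higher (2.302 to 3.98) in CDDO+TPA against TPA. Pbxip1, a PBX-binding protein, had 59.3 (CDDO+TPA), 33.8 (TPA) and 70.3 (control) CPM. Of 41 measured Polycomb and trithorax genes, the rule called 1 higher and 0 lower in TPA against control and 1 higher and 4 lower in CDDO+TPA against TPA, with medians of 0.09 and -0.23. The 4 of 41 lower were close to the share of all genes. The lower ones were Kmt2d, a histone methyltransferase (315 (CDDO+TPA), 713 (TPA) and 542 (control) CPM), the histone demethylase gene Kdm6b (151 (CDDO+TPA), 331 (TPA) and 223 (control) CPM), Phf1 (81.1 (CDDO+TPA), 170.4 (TPA) and 87.4 (control) CPM) and Jarid2 (11.5 (CDDO+TPA), 23.5 (TPA) and 10.5 (control) CPM), both of which encode Polycomb accessory proteins. Phf19, another such accessory gene, had 42.4 (CDDO+TPA), 15.2 (TPA) and 12.7 (control) CPM and was 2.79-fold higher (2.26 to 3.47) in CDDO+TPA against TPA. Kmt2a, the trithorax gene best known for maintaining Hox expression, had 364 (CDDO+TPA), 443 (TPA) and 462 (control) CPM, and Ezh2, the Polycomb methyltransferase, had 129 (CDDO+TPA), 85.1 (TPA) and 85.7 (control) CPM, neither past the rule.

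Retinoic acid is the classical inducer of Hox genes, and 11 genes of its pathway were measured, with 3 higher and 2 lower in TPA against control and 1 higher and 1 lower in CDDO+TPA against TPA (medians 0.19 and -0.10). Crabp2, a retinoic acid carrier, had 3.801 (CDDO+TPA), 25.9 (TPA) and 4.12 (control) CPM and was 6.28-fold higher (4.33 to 9.37) in TPA against control and 6.803-fold lower (4.62 to 10.3) in CDDO+TPA against TPA. Aldh1a1, a retinaldehyde dehydrogenase, had 67 (CDDO+TPA), 1 (TPA) and 9 (control) reads, and Cyp26b1, which degrades retinoic acid, had 30.3 (CDDO+TPA), 39.2 (TPA) and 10.7 (control) CPM. Rara, a retinoic acid receptor gene, had 89.5 (CDDO+TPA), 167 (TPA) and 112 (control) CPM.

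Of the noncoding genes of the Hox clusters, Hotair, transcribed between Hoxc11 and Hoxc12, had 8.87 (CDDO+TPA), 27.5 (TPA) and 14.2 (control) CPM and was 3.100-fold lower (2.36 to 4.12) in CDDO+TPA against TPA. Hotairm1, which lies beside Hoxa2, had 7.48 (CDDO+TPA), 20.5 (TPA) and 15.4 (control) CPM and was 2.74-fold lower (2.02 to 3.75), whereas Hoxa2 had a log2 fold change of -0.14. Of the 4 measured genes of that list, the rule called 1 higher and 0 lower in TPA against control and 0 higher and 2 lower in CDDO+TPA against TPA, with medians of 0.67 and -1.26. The only Hox members that share exon bases with a gene on the other strand were Hoxa3, with Hoxaas2 and Hoxaas3, and Hoxa11 with Hoxa11os.

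Homeobox genes outside the rule were mostly not measured, with 13 of 61 measured and 35 at 0 reads in every library. The measured genes included Prrx1, a marker gene of limb mesenchyme, with 167 (CDDO+TPA), 147 (TPA) and 88.6 (control) CPM, and Shox2, a limb gene, with 51.1 (CDDO+TPA), 80.2 (TPA) and 56.03 (control) CPM. In this list the rule called 1 higher and 0 lower in TPA against control and 0 higher and 1 lower in CDDO+TPA against TPA, with medians of 0.50 and -0.46. Both calls were of Barhl1, with 2 (CDDO+TPA), 11 (TPA) and 1 (control) reads. Barhl1 reached 1 CPM in the TPA library alone, so the filter favoured both calls. Other developmental factors of limb and skin mesenchyme gave 8 higher and 1 lower of 26 in TPA against control and 1 higher and 4 lower in CDDO+TPA against TPA, with medians of 0.52 and -0.50. Gli1, a target and effector of Hedgehog signalling, had 7.603 (CDDO+TPA), 17.2 (TPA) and 1.37 (control) CPM and was 12.5-fold higher (6.79 to 25.7) in TPA against control. Sox9 had 168 (CDDO+TPA), 228 (TPA) and 63.1 (control) CPM and Tfap2a had 19.3 (CDDO+TPA), 45.3 (TPA) and 14.1 (control) CPM. Among 3 measured T-box genes outside the rule (medians 0.42 and -0.20), T, the mesoderm gene brachyury, had 0 (CDDO+TPA), 47 (TPA) and 2 (control) reads and was 23.6-fold higher (6.19 to 201) in TPA against control and at least 15.5-fold lower in CDDO+TPA against TPA, with the floor of 3 reads in the CDDO+TPA library. Like Barhl1, T reached 1 CPM in the TPA library alone, so its calls in both comparisons were favoured by the filter. Mga and Tbr1 were not past the rule in either comparison.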

How the data were processed

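Total RNA of 3 libraries, 1 per group, was analysed. Raw read counts by gene symbol were deposited by the authors, who per the file headers ran featureCounts 1.5.3 with a UCSC gene file for mm10 and primary alignments only. The deposited table also gives exonic length in bases. Per the submitters' processing notes HISAT2, Picard and DESeq were used, without versions. The column names carry a mark of duplicate removal, which can cap reads of abundant genes, and the command in the header sets no strand, so overlapping genes on opposite strands cannot be told apart. The column matched to CDDO+TPA names CDDO alone, and it was matched as the one sample whose labels name CDDO.

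Libraries of 7872089 (CDDO+TPA), 7813035 (TPA) and 8190078 (control) reads were scaled by TMM in edgeR 4.0.16 (R 4.3.3). Fold changes on the log2 scale use CPM with a prior count of 2, and other folds are ratios of CPM with exact conditional binomial 95% intervals. Intervals and floors describe counting error and nothing else, and they treat each counted read as a separate molecule. The filter of 1 CPM in any library left 13100 of 24421 genes. Groups of 1 library allow no p-value. The code was tested on simulated data. Alternatives used DESeq2 1.42.0 size factors, total counts, upper quartiles, prior counts of 0.5 and 5, other filters and a 99% interval. GC content came from the longest GENCODE M21 transcript per symbol, found for all 60 measured members, and promoter windows from RefSeq tables of GRCm38.p6.

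Members and lists were chosen with earlier results of these data known. The rule for named genes took every measured Hox gene, the 2 highest per-length members of each family, and members past the size rule with at least 10 reads. Cofactor and list genes, and other members given as neighbours, were chosen after their values were seen. Of the listed symbols of the Hox cluster noncoding genes, 17 of 22 were found in the table. Some members the rule took are not reported here, though counts and sums include them.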

Additional observations from a re-analysis of the deposited data

How the results depend on the processing

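Counts of members past the size rule were within 1.5 times the reported count in 51 of 56 recomputed values, and no log2 fold change of a named member past the rule changed sign. With DESeq2 size factors all 6 counts held the reported genes. With a mean of at least 10 CPM, which left 37 members and 9890 genes, 3 members were higher in TPA against control, 7 were lower in CDDO+TPA against TPA and 0 were higher in CDDO+TPA against control. Over all genes that filter gave 381 higher and 476 lower in TPA against control (reported 1254 and 774), 522 and 227 in CDDO+TPA against TPA (reported 1031 and 1019), and 507 and 165 in CDDO+TPA against control (reported 1051 and 442), so the 7 of 37 members lower in CDDO+TPA against TPA stood beside 2.295% of all genes. With a prior count of 5 or a 99% interval, 1 member was higher in CDDO+TPA against control. Measured members numbered 59 with at least 10 reads in at least 1 library and 55 with at least 1 CPM in all 3. Depth limits the low members most, as in Tbx21, whose fold in CDDO+TPA against TPA has an interval of 2.64 to 704. No paired analysis was possible because each group had 1 library and the labels give no replicate numbers.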
